A study of Homo sapiens with 8 samples.

Results

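The claudins and their partners of the tight junction were followed in A549 cells, a cell line established from a human lung adenocarcinoma, after exposure to EEDS or to helveticoside. Of the 10 genes considered, 7 encode claudins (CLDN1, CLDN2, CLDN3, CLDN4, CLDN7, CLDN12 and CLDN15) and 3 encode occludin (OCLN) and the scaffold proteins ZO-1 (TJP1) and ZO-3 (TJP3). They were listed by symbol and looked up through the transcript accession of each array probe, which gave a value for 9 of the 10 among 19046 genes tested; TJP3 was not matched to a probe here. The list was drawn up around CLDN2, which was selected on its log2 ratios under helveticoside, where it was among the genes that fell furthest, so the helveticoside values of the 10 genes are given as descriptions and no test of them is made.

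EEDS is the ethanol extract of the seeds of D. sophia, and helveticoside is a cardiac glycoside contained in it. The EEDS series had 4 one-colour arrays, 1 for the vehicle control and 1 each for 1.25, 5 and 20 μg/mL, and the helveticoside series had 4 more, 1 for its own vehicle control and 1 each for 3.75, 15 and 60 nM. The labels place no other treatment on these cells, which all came from 1 cell line. Each array held RNA pooled from 3 cultures, so no dose had replicates, and precision is limited by having 8 arrays in all. Cells were exposed for 24 h by the study's methods and for 48 h by the labels. All doses of an agent were set against the same control array, so an error in that array would enter all 3 ratios of the agent.

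Tight junctions seal the space between neighbouring epithelial cells near their apical border. Claudins are membrane proteins whose extracellular loops meet those of the next cell, and they set which ions and how much water pass between cells; some seal the space, whereas CLDN2 and CLDN15 form pores for small cations. Occludin and the junctional adhesion molecules lie in the same strands, and ZO proteins tie these strands to the actin cytoskeleton.

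Promoter windows are shown for the 3 claudins with the largest differences (CLDN2, CLDN1 and CLDN3) and for CLDN4, which lies near CLDN3 on chromosome 7 and behaved otherwise. The windows are from RefSeq on GRCh38.p14 and run from 250 bases before to 50 bases after an annotated start, written 5′ to 3′ along the gene. Capitals mark matches on either strand to TGANTCA, to the E-box CAGGTG bound by SNAI and ZEB proteins, and to the GC box GGGCGG bound by Sp1. TGANTCA is a loose form of the AP-1 motif that allows any base (N) at its centre. Neighbouring GC boxes overlap once in the CLDN3 window.
CLDN2 promoter, chrX:106899914-106900213, plus strand: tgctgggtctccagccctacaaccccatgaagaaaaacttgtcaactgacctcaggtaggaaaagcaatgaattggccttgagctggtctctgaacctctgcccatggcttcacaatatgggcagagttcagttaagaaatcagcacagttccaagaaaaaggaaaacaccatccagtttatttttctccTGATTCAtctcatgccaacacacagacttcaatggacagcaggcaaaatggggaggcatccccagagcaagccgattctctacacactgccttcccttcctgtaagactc
CLDN2 promoter, chrX:106918110-106918409, plus strand: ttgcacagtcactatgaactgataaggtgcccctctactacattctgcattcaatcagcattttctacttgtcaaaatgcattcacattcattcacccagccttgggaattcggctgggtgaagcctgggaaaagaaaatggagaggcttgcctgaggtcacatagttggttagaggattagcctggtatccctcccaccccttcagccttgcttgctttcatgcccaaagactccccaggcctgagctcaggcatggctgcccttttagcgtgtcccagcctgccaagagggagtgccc
CLDN1 promoter, chr3:190322397-190322696, minus strand: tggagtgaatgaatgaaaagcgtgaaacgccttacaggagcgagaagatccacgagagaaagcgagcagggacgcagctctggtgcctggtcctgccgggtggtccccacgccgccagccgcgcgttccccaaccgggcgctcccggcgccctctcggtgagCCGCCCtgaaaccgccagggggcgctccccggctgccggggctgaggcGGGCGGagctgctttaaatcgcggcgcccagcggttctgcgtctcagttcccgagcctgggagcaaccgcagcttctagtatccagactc
CLDN3 promoter, chr7:73770221-73770520, minus strand: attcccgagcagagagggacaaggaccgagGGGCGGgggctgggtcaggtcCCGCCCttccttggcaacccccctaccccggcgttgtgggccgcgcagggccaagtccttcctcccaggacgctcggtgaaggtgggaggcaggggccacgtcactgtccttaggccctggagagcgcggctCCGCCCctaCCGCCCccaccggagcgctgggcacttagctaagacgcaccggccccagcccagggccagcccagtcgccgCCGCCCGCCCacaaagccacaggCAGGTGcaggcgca
CLDN4 promoter, chr7:73830746-73831045, plus strand: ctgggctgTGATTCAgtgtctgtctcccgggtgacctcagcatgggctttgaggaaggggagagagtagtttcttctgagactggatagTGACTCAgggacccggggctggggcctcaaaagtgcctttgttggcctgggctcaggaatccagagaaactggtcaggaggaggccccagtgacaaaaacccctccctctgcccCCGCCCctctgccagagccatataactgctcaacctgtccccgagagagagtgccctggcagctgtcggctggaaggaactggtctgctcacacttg

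Both CLDN2 windows were poorer in G and C than the median of 58.7% over 35116 promoter windows, with 47.3% and 51.3%, whereas the CLDN1 window had 67.0%, the CLDN3 window 72.0% and the CLDN4 window 59.0%. The first CLDN2 window held 1 match to TGANTCA and the second window none of the motifs marked. The CLDN4 window held 2 matches to TGANTCA, and the CLDN3 window held 6 GC boxes and 1 E-box. Over the 17 windows of the 10 genes, TGANTCA was found in 3 (those of CLDN2, CLDN4 and CLDN15) against 7.71% of all windows, CAGGTG in 6 against 20.6%, and GGGCGG in 11 against 45.0%. Of 6 motifs searched, 5 are reported; the TATA box TATAAA and the grainyhead motif AACCGGTT were in none of the 17 windows, against 11.5% and 0.134% of all windows. These motifs were chosen with the expression values known, and a match describes the letters of a window only.

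Of the 43118 probe spots on an array, 65.3% to 66.9% were well above background in the EEDS series and 56.9% to 61.6% in the helveticoside series, and the median signal was 182 to 214 and 223 to 278, respectively. No spot was saturated. Of the markers that name the cells, 6 of 6 epithelial genes (EPCAM, CDH1, KRT7, KRT8, KRT18 and KRT19) were well above background on all 8 arrays, as was 1 of 6 alveolar type II genes, with NKX2-1, SFTPA1 and SFTPB on none. That gene, the lipid transporter ABCA3, fell with the dose of both agents, in the direction of CLDN2 and CLDN3, and was 9.04-fold lower at 20 μg/mL EEDS and 8.19-fold lower at 60 nM helveticoside (limma adjusted p = 0.0145 and 0.0185). Of 9 leukocyte, macrophage, endothelial and fibroblast markers, 4 (PTPRC, CD68, CDH5 and COL1A1) were well above background on all 8 arrays and 4 on none, and 0 of the 9 had a dose trend for either agent. A signal well above background thus does not by itself name a cell type here. The arrays carry RNA of whole cultures, so a changed mix of cells and a change of RNA per cell cannot be told apart. Equal amounts of RNA were pooled and the arrays normalized, so the number of cells is not read.

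CLDN2, a pore-forming claudin of leaky epithelia, showed the largest difference of the 9 genes with both agents. Its normalized signal, the background-subtracted brightness of its probe in arbitrary units, was 6375 on the EEDS control and 3364, 403 and 318 at 1.25, 5 and 20 μg/mL. On the helveticoside arrays it was 6304 on the control and 5841, 843 and 178 at 3.75, 15 and 60 nM. The 2 controls were nearly equal, and each higher dose of an agent had a lower signal than the dose before it. Against the control of its series, CLDN2 was 20.1-fold lower at 20 μg/mL EEDS (log2 ratio -4.33) and 35.3-fold lower at 60 nM helveticoside (-5.14). The descent was not even over the doses. With EEDS, most of it lay between 1.25 and 5 μg/mL, a step of -3.06 on the log2 scale, and the step from 5 to 20 μg/mL was -0.34; with helveticoside, the first dose moved it by -0.11, and the steps to 15 and to 60 nM were -2.79 and -2.24. Among the genes that both arrays measured well above background, CLDN2 had the second lowest ratio of 11937 at 60 nM helveticoside and stood at place 17 of 12971 at 20 μg/mL EEDS. CLDN2 was selected on its helveticoside values, so its place at 60 nM restates that choice.

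CLDN3, a sealing claudin of many epithelia, also had less signal at each higher dose of both agents. Its signal was 1487 on the EEDS control and 682, 435 and 351 at the rising doses of EEDS. It was 1185 on the helveticoside control and 1077, 426 and 302 at the rising doses of helveticoside. The top doses were 4.24-fold (EEDS) and 3.93-fold (helveticoside) below their controls. The EEDS array at 1.25 μg/mL was already 1.13 lower on the log2 scale, whereas the array at 3.75 nM helveticoside was 0.14 below its control. These lowest doses are not matched.

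CLDN1, a claudin needed for the barrier of the skin, went the other way. Its signal was 1930.0 on the EEDS control and 4315, 7515 and 10988 at 1.25, 5 and 20 μg/mL. On the helveticoside arrays it was 1513 on the control and 1796, 4524 and 8821 at 3.75, 15 and 60 nM. Each dose was above the one before it with both agents, and the top doses were 5.69-fold (EEDS) and 5.83-fold (helveticoside) above their controls.

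**Figure D1:**
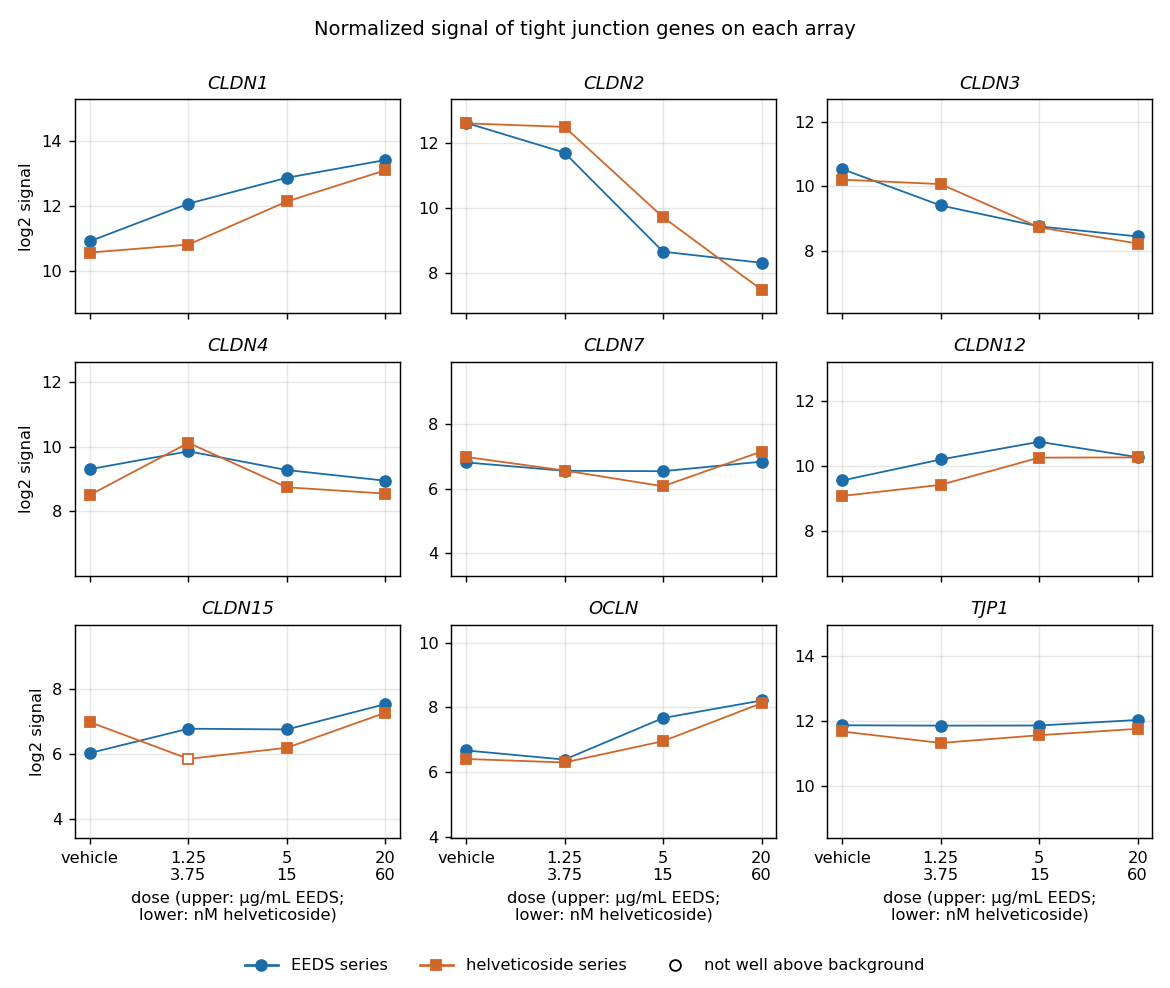
Normalized signal (log2, vertical axis) of the 9 genes on each of the 8 arrays against the dose (horizontal axis), with EEDS as blue circles and helveticoside as orange squares; each point is 1 array, lines join the doses of an agent, and an open symbol marks a probe not well above background. CLDN2 and CLDN3 are lower and CLDN1 is higher at every step of both agents, and TJP1 is nearly level.

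The remaining claudins moved less or without order. CLDN4, a sealing claudin, had its highest signal at the lowest dose of both agents. Its signal was 633 on the EEDS control and 929, 621 and 495 at the rising doses, and 365 on the helveticoside control and 1113, 429 and 376 at the rising doses. Its log2 ratio was 1.61 at 3.75 nM helveticoside and 0.04 at 60 nM. CLDN4 stayed within 2-fold of its control on 5 of the 6 treated arrays, unlike CLDN3.

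CLDN12, a claudin that lacks the usual carboxy-terminal motif for binding PDZ domains, was above its control at every dose. Its signal was 752 on the EEDS control and 1179, 1723 and 1239 at the rising doses of EEDS, and 540 on the helveticoside control and 685, 1227 and 1232 at those of helveticoside. The ratio passed 2-fold at 5 μg/mL EEDS (log2 ratio 1.20) and at 15 and 60 nM helveticoside (1.18 and 1.19), and it was 0.72 at 20 μg/mL EEDS. A second, dimmer probe of CLDN12, well above background on 5 of the 8 arrays, gave 1.62 at 20 μg/mL and 1.93 at 60 nM.

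CLDN15, a cation pore of the gut, had low signal and no common direction. Its signal was 65.3 on the EEDS control and 110, 108 and 186 at the rising doses, a log2 ratio of 1.51 at 20 μg/mL. The helveticoside control was brighter than the EEDS control, at 127, and the helveticoside arrays gave 57.6, 73.1 and 155; the array at 3.75 nM was not well above background. CLDN7, which is also found along the lateral membrane outside the junction, had signals of 113, 94.0, 93.3 and 114 on the EEDS arrays and of 127, 94.5, 67.5 and 142 on the helveticoside arrays, with no more than a 2-fold difference from its control on any of the 6 treated arrays.

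Of the partners of the claudins, OCLN encodes occludin, a protein of the junction strands. Its signal was 102 on the EEDS control and 83.7, 204 and 297 at 1.25, 5 and 20 μg/mL. The helveticoside control had 84.8 and the rising doses 78.7, 124 and 280. The lowest dose of each agent was slightly below its control and the top doses were 2.92-fold (EEDS) and 3.31-fold (helveticoside) above it. A second probe of OCLN, well above background on 7 of the 8 arrays, gave log2 ratios of 1.48 and 1.53 at the top doses, beside 1.54 and 1.72 for the probe used. TJP1, the ZO-1 scaffold beneath the strands, had signals of 3733, 3705, 3715 and 4181 on the EEDS arrays and of 3267, 2555, 3015 and 3460.0 on the helveticoside arrays. All 6 of its log2 ratios lay between -0.35 and 0.16.

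**Figure D2:**
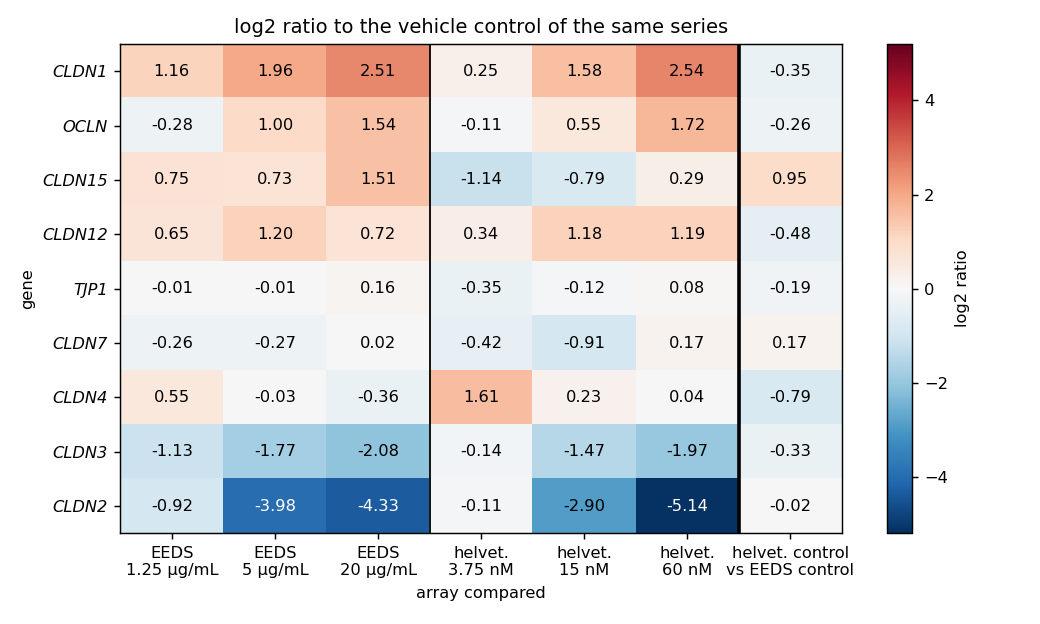
Heat map of log2 ratios of the 9 genes (rows) on each treated array against its vehicle control (first 6 columns) and of the helveticoside control against the EEDS control (last column), with red for higher and blue for lower. CLDN1 is at 2.51 and 2.54 and CLDN2 at -4.33 and -5.14 at the top doses, while the controls differ by at most 0.95, for CLDN15.

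The vehicle controls show how far these genes differ between arrays of untreated cells from the 2 series. No gene of the 9 differed by more than 2-fold between them, as 10.4% of all genes did. The largest gaps were 0.95 for CLDN15 and -0.79 for CLDN4 on the log2 scale (helveticoside control minus EEDS control), and the gaps of CLDN1, CLDN2 and CLDN3 were -0.35, -0.02 and -0.33. For CLDN1, CLDN2 and CLDN3 the difference at each top dose was larger than the gap between the controls, whereas for CLDN15 at 60 nM (0.29), for CLDN7 at 20 μg/mL (0.02) and for CLDN4 and TJP1 at both top doses it was smaller than that gap.

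At 20 μg/mL EEDS, 2 of the 9 genes were more than 2-fold lower than the control (CLDN2 and CLDN3) and 3 were more than 2-fold higher (CLDN1, CLDN15 and OCLN), against 14.5% and 13.3% of all 19046 genes. At 5 μg/mL, 2 were lower and 3 higher against 8.47% and 7.33%, and at 1.25 μg/mL 1 was lower and 1 higher against 3.66% and 4.22%. At 60 nM helveticoside, the contrast by which CLDN2 was put forward, 2 were lower and 3 higher (CLDN1, CLDN12 and OCLN), against 12.8% and 10.8% of all genes; at 15 nM the numbers were 2 and 2 against 8.06% and 7.08%, and at 3.75 nM 1 and 1 against 4.31% and 3.38%. The median log2 ratio of the 9 genes was 0.16 at 20 μg/mL EEDS and 0.17 at 60 nM helveticoside, beside 0.02 and 0.00 over all genes, so the members lay on both sides of their controls with no common shift.

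CLDN2 was selected on its helveticoside values, and the genes were listed with earlier results of these data known. The dose trend under EEDS was tested with limma as a slope per dose step over the 8 arrays. The spread in that fit comes partly from the helveticoside arrays. The paper queried the Connectivity map with genes strongly changed by EEDS, which is not a full list of changed genes. That query list already holds CLDN1 (up) and CLDN3 (down), though not CLDN2. The EEDS p-values are therefore not free of how the genes were chosen. CLDN1 rose by 0.83 ± 0.12 per step on the log2 scale (SE; adjusted p = 0.0167 by limma with Benjamini-Hochberg adjustment over all genes), CLDN2 fell by 1.60 ± 0.33 (adjusted p = 0.0337) and CLDN3 fell by 0.69 ± 0.13 (adjusted p = 0.0282). That is 1 rising and 2 falling genes of 9, or 11.1% and 22.2%, where 7.27% of all genes rose and 7.85% fell. The other slopes did not pass, at 0.59 ± 0.18 for OCLN (limma adjusted p = 0.0871), 0.45 ± 0.23 for CLDN15 (adjusted p = 0.241), 0.27 ± 0.14 for CLDN12 (adjusted p = 0.237), -0.16 ± 0.27 for CLDN4 (adjusted p = 0.803), 0.05 ± 0.07 for TJP1 (adjusted p = 0.763) and 0.01 ± 0.18 for CLDN7 (adjusted p = 1.0). The helveticoside slopes, given without a test, were 0.90 ± 0.12 for CLDN1, -1.82 ± 0.33 for CLDN2, -0.73 ± 0.13 for CLDN3, 0.58 ± 0.18 for OCLN and 0.44 ± 0.14 for CLDN12. The doses of an extract and of a single compound are not matched, and the slopes of the 9 genes were not compared between the agents. The shares of all genes with a trend, here and for the lists below, include 4269 genes well above background on no array. Of the 9 genes, 8 were well above background on all 8 arrays. When only the 11498 genes of that kind were fitted, limma called an EEDS trend for 3600 of them. Of the 8, 2 rose and 2 fell in that fit. With 1 array a dose the calls rest on few arrays. The CLDN1 call was lost without the EEDS control (limma adjusted p = 0.138) or the 20 μg/mL array (0.12). The CLDN2 call was lost without the EEDS control (limma adjusted p = 0.174), 1.25 μg/mL (0.0641), 20 μg/mL (0.161), 15 nM (0.0775) or 60 nM (0.0585), and the CLDN3 call without the EEDS control (limma adjusted p = 0.213), 5 μg/mL (0.0521), 20 μg/mL (0.133), 15 nM (0.061) or 60 nM (0.0573). None of the 3 passed with only the 4 EEDS arrays (limma adjusted p = 0.103 for CLDN1, 0.115 for CLDN2 and 0.109 for CLDN3) or with the dose in place of the dose step (0.159, 0.177 and 0.251).

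The wider tight junction was followed with 54 further genes listed by function, of which 53 were on the array (CLDN24 was not matched) and 29 were well above background on all 8 arrays. Under EEDS, 4 of the 53 rose with dose (7.55%) and 5 fell (9.43%), close to the shares of all genes; under helveticoside, 5 rose (9.43%, beside 5.48% of all genes) and 3 fell (5.66%, beside 5.80%). A trend with both agents was found for 7 of the 53 and for 1742 of all 19046 genes. The 54 genes too were listed with earlier results of these data known. The slopes of the 2 agents differed for 0 of the 53 by limma after adjustment over all genes, and for 1 (ILDR1) at an unadjusted p under 0.05; over the 19046 genes the numbers were 0 and 525. All EEDS calls over the 19046 genes were lost without the EEDS control or the 20 μg/mL array, when limma called 0 genes (4612 and 3924 at an unadjusted p under 0.05), and all helveticoside calls were lost without the 15 or the 60 nM array (0 genes, with 5034 and 3033 unadjusted), so this holds for every trend given here.

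Few of the other claudins could be read: 3 of 15 were well above background on all 8 arrays and 7 on none. CLDN10, which occurs in a cation-selective and an anion-selective form, fell with EEDS dose (limma adjusted p = 0.0306) and was at least 3.71-fold lower at 20 μg/mL and at least 2.74-fold lower at 60 nM, since its probe was not well above background at the top doses. The probe was well above background on 5 of the 8 arrays, so that slope rests partly on background values. CLDN23 was 3.87-fold lower at 20 μg/mL and 3.58-fold lower at 60 nM, with trends that did not pass (limma adjusted p = 0.0559 for EEDS and 0.0812 for helveticoside). CLDN6, a claudin of embryonic epithelium named after its values were seen, rose with helveticoside dose (limma adjusted p = 0.0291). Its probe was well above background on 2 of the 8 arrays only, so most points of that slope are background values. It was at least 1.60-fold higher at 60 nM, with a control not well above background.

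Of the 12 other membrane proteins of the junction, 6 were well above background on all arrays. CXADR, the coxsackievirus and adenovirus receptor, rose with both agents, with log2 ratios of 1.19 at 20 μg/mL and 1.32 at 60 nM (limma adjusted p = 0.0332 and 0.0277). ILDR1, a protein of tricellular corners, fell with EEDS dose, with a log2 ratio of -0.99 at 20 μg/mL (limma adjusted p = 0.0144), and had -0.37 at 60 nM (0.146). ESAM, an adhesion molecule best known from endothelium, was 4.30-fold higher at 20 μg/mL and 2.84-fold higher at 60 nM, and its trends did not pass (limma adjusted p = 0.0914 and 0.187).

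Of the 26 other scaffold and polarity proteins, 20 were well above background on all arrays, and 3 rose and 3 fell with both agents (11.5% each, where 7.27% of all genes rose and 7.85% fell with EEDS, and 5.48% and 5.80% with helveticoside). AMOTL2, an angiomotin that binds actin and YAP, had the largest rise of these, with log2 ratios of 2.49 at 20 μg/mL and 2.17 at 60 nM (limma adjusted p = 0.0132 and 0.0169). PARD6B and PARD6G are paralogs, both adaptors of the PAR polarity complex, and they moved in opposite directions. PARD6B rose, with 1.41 and 1.38 (limma adjusted p = 0.014 and 0.0173), and PARD6G fell, with -2.49 and -1.67 (adjusted p = 0.0165 and 0.036). PARD3, the scaffold of that complex, fell too, with log2 ratios of -0.88 and -0.81 (limma adjusted p = 0.0284 and 0.0488), as did LLGL2, a polarity protein of the basolateral side, with -1.17 and -0.79 (0.0181 and 0.0389). YBX3, a transcription factor that binds ZO-1, rose with 0.79 and 0.83 (limma adjusted p = 0.0218 and 0.0252). CGNL1, the paracingulin of the junction plaque, had -1.87 and -2.53 at the top doses with trends short of the threshold (limma adjusted p = 0.101 and 0.0543).

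**Figure D3:**
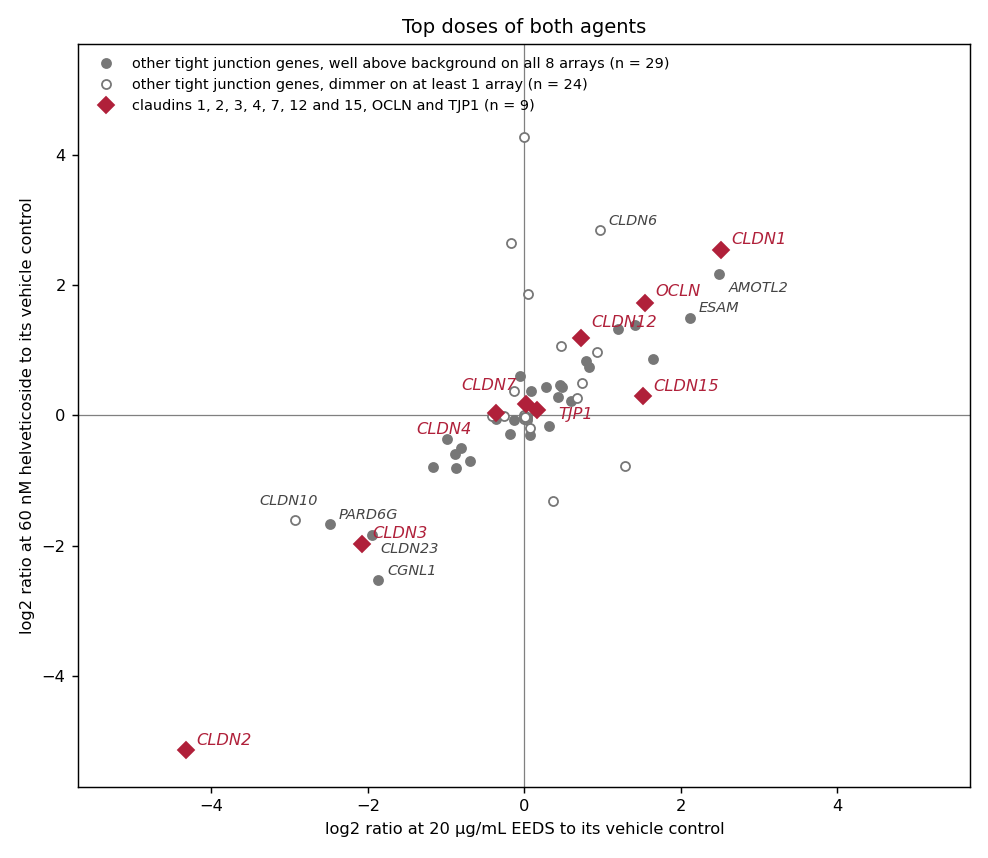
Log2 ratio to the vehicle control at 20 μg/mL EEDS (horizontal axis) against that at 60 nM helveticoside (vertical axis), 1 point per gene, with red diamonds for the 9 genes, filled grey circles for 29 other tight junction genes well above background on all 8 arrays and open circles for 24 that were dimmer on at least 1 array, where the ratio can rest on the background. CLDN2 lies at -4.33 and -5.14, below every other tight junction gene plotted on both axes, and CLDN1 at 2.51 and 2.54.

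Transcription factors known to act on epithelial junction genes were listed as a further group, of which 19 were on the array and 11 were well above background on all 8 arrays. With EEDS dose, 4 rose (21.1%, beside 7.27% of all genes) and 2 fell (10.5%, beside 7.85%), and with helveticoside dose 4 rose (21.1%, beside 5.48%) and 0 fell (beside 5.80%). The group was listed with earlier results of these data known. The paper's EEDS query list for the Connectivity map already holds KLF4 and ZEB2 (both up). These shares are therefore descriptions and not free of how the genes were chosen. ZEB1 and ZEB2, repressors of CDH1 and other epithelial genes, rose with both agents. ZEB1 had log2 ratios of 1.82 at 20 μg/mL and 1.24 at 60 nM (limma adjusted p = 0.0179 and 0.0377), and ZEB2 had 2.18 and 2.10 (0.0237 and 0.0262). SNAI2, a repressor of the same kind, rose as well (limma adjusted p = 0.034 and 0.0499), by at least 2.55-fold at 20 μg/mL and at least 1.47-fold at 60 nM. Its probe was well above background on 5 of the 8 arrays and on neither control, so its slopes rest partly on background values. SNAI1 had log2 ratios of 1.01 and -0.45 and no trend (limma adjusted p = 0.665 and 0.667). TWIST1 had 0.06 and 0.04 and no trend either (limma adjusted p = 0.952 and 0.916).

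KLF4, a zinc finger factor of barrier epithelia, was above its control 17.4-fold at 20 μg/mL EEDS and at least 12.1-fold at 60 nM helveticoside, and its trend passed for both agents (limma adjusted p = 0.0132 and 0.0177). HNF4A, a nuclear receptor of liver and gut epithelium, fell with EEDS dose (limma adjusted p = 0.0475), but its probe was well above background on 1 array only, and it was at least 1.16-fold lower at 20 μg/mL. TFCP2L1 had log2 ratios of -1.32 and -2.32 at the top doses with no trend called (limma adjusted p = 0.469 and 0.167). GRHL1, a grainyhead factor, was above its control 3.10-fold at 20 μg/mL and at least 2.11-fold at 60 nM, again with no trend called (limma adjusted p = 0.199 and 0.139).

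Among the epithelial markers, 4 of 6 fell with EEDS dose (beside 7.85% of all genes) and 3 with helveticoside dose (beside 5.80%). All 6 were well above background on all 8 arrays, whereas the shares of all genes include dim probes. CDH1, the cadherin of the adherens junction, fell with log2 ratios of -2.70 and -2.71 at the top doses (limma adjusted p = 0.0364 and 0.0452), and KRT19, a keratin of simple epithelia, with -1.90 and -1.72 (0.0302 and 0.0442). EPCAM had 0.05 and -0.26 at the same doses and KRT7 0.62 and 0.53, and neither trend passed. The part of these genes and of ABCA3 in the claudin values was not tested.

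**Figure D4:**
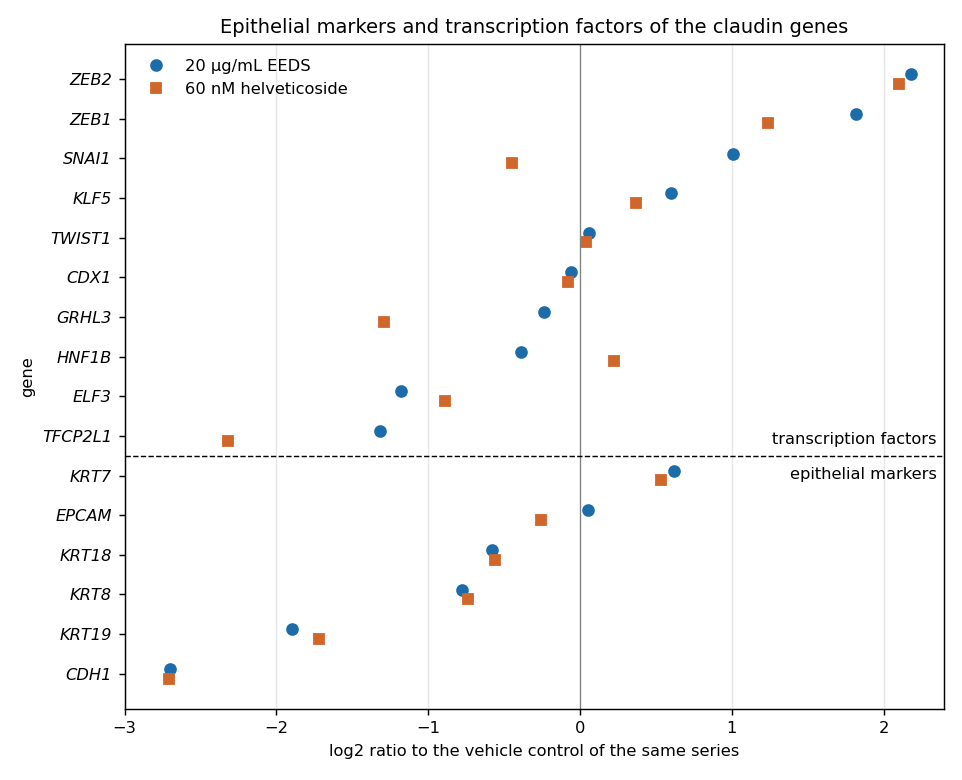
Log2 ratio to the vehicle control of the same series (horizontal axis) for 10 of the 11 transcription factors and for the 6 epithelial markers well above background on all 8 arrays (vertical axis), with 20 μg/mL EEDS as blue circles and 60 nM helveticoside as orange squares, each from 1 array. ZEB1 and ZEB2 lie to the right at both doses, CDH1 and KRT19 to the left, and SNAI1 on opposite sides for the 2 agents.

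The genes whose pattern was nearest to that of CLDN2 were found by the Euclidean distance over the 6 log2 ratios among 11498 genes well above background on all 8 arrays, of which 3 ratios share each control. BCAS1 was nearest, at a distance of 1.14, with log2 ratios of -0.75, -3.08 and -4.40 at the rising doses of EEDS and -0.10, -2.41 and -4.70 at those of helveticoside. DPYSL5 (distance 1.46), the peroxisomal oxidase gene ACOX2 (1.72) and the glycosyltransferase gene B4GALNT1 (2.06) were also among the 5 nearest. The log2 ratios of these 4 genes lay between -4.40 and -3.80 at 20 μg/mL EEDS and between -4.70 and -4.12 at 60 nM helveticoside, beside -4.33 and -5.14 for CLDN2. They were chosen by these same ratios, so their closeness to CLDN2 follows from the choice. Nearest to CLDN1 were PXDC1 (distance 0.26), RBM24 (0.35) and the receptor kinase gene ROR1 (0.36). PXDC1 had log2 ratios of 1.14, 1.79 and 2.45 with EEDS and 0.15, 1.51 and 2.39 with helveticoside. The distances are not compared between CLDN1 and CLDN2, since CLDN2 was selected for its large fall and a gene with extreme ratios has few close neighbours.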

How the data were processed

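The authors deposited, per array, the scanner software's intensity of each spot (a background-subtracted processed signal, the median signal and the local background) and a table of processed intensity values, from its values quantile-normalized within each series. After control and outlier spots had been dropped, the processed signal was averaged per probe, quantile-normalized over the 8 arrays and put on a log2 scale. Quantile normalization gives all arrays 1 distribution and hides a shift of all genes. Probes were named through their accession by RefSeq transcripts of GRCh38.p14 (24812 of 34127 probes, 19056 genes), and a gene was read from its brightest probe on average. The build behind the array design is not given in the sources used here. Each probe of the 9 genes had 1 spot per array, and among probes with at least 5 spots the median SD between spots was 0.069 to 0.085 on the log2 scale. Genes were kept with a signal of at least 1.4 times the background on at least 1 array of each series. Where an array was not well above background, a fold is a bound against the higher of the probe's own signal and the lowest signal well above background. Dose trends come from limma 3.58.1 in R 4.3.3 with statmod 1.5.0 (eBayes with trend and robust on). The fit had an intercept and a slope per dose step for each series, 4 residual degrees of freedom and Benjamini-Hochberg adjustment at 0.05. It was tried on simulated data with independent noise about straight lines. That trial does not cover an error in a control array or an uneven dose response. Other values came from scripts in Python 3.11.15 using pandas 2.3.3, numpy 2.4.6 and scipy 1.17.1. The SE of a slope measures the scatter of arrays about straight lines, not replicates. Members and lists were chosen with earlier results of these data known. Named from the lists were genes with a trend for an agent, up to 8 a list by their ratio at a top dose, and genes over 2-fold apart at both top doses. A few genes that this rule names are left out of the text, and SNAI1 and TWIST1 are named outside it. Tried as alternatives were the scanned signal, normexp (offset 50), 75th percentile scaling, the authors' deposited values, other filters, probes, controls, thresholds and trend fits, and leaving out each array.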

Additional observations from a re-analysis of the deposited data

How the results depend on the processing

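No paired analysis was possible because the labels carry no replicate numbers and each dose had 1 array. Of the 9 genes, 3 were more than 2-fold higher at 20 μg/mL EEDS, and 1 was with the signal as scanned or at a threshold of 3-fold. The 1 rising and 2 falling EEDS trends of the 9 genes became 0 and 0 with only the 4 arrays of the series or with the dose in place of the dose step, 0 to 1 and 0 to 2 when single arrays were left out, and 3 rising with the authors' deposited values or 2 rising with genes well above background on all 8 arrays. Of the other tight junction genes, the 4 rising and 5 falling EEDS trends became 0 and 0 with only 4 arrays, 0 and 3 with the dose, 7 rising with the authors' values, and 0 to 4 and 0 to 6 without single arrays. Their 5 rising and 3 falling helveticoside trends became 0 and 0 with only 4 arrays, 1 and 0 with the dose, 3 rising with the authors' values, 5 falling with the signal as scanned, with normexp or with genes well above background on all arrays, 1 falling with the mean over probes, and 0 to 5 and 0 to 2 without single arrays. The slopes of CLDN1, CLDN2 and CLDN3 kept their sign throughout, with limma adjusted p of 0.0205 to 0.138, 0.0292 to 0.174 and 0.0348 to 0.213 without single arrays and 0.00314 to 0.159, 0.00495 to 0.177 and 0.00469 to 0.251 under the other alternatives. The OCLN trend passed with the authors' values (limma adjusted p = 0.0114) and among genes well above background on all arrays (0.0314), and that of CLDN15 with the authors' values (0.0428). Against the control of the other series, CLDN15 was at 0.56 at 20 μg/mL EEDS and 1.25 at 60 nM helveticoside on the log2 scale, and CLDN12 at 1.20 and 0.71. Without background subtraction, the scanned signal gave 0.91 for CLDN15 and 0.97 for OCLN at 20 μg/mL, and normexp gave 0.92 for CLDN15. With the authors' values OCLN was at 0.95 at 60 nM, which left 2 of the 9 genes more than 2-fold higher there in place of 3. The second probe of CLDN12, an alternative added after seeing the data, passed 2-fold at 20 μg/mL EEDS (1.62), as did the mean over its probes (1.17). With 75th percentile scaling, the median of all genes lay at -0.20, -0.21 and -0.36 (log2) for the EEDS doses and at 0.14, -0.12 and -0.18 for the helveticoside doses, in rising order. Of the values of single genes under alternatives, 290 stayed on their side of the threshold; 272 of these kept their sign and 18 turned it, all of them ratios or slopes of CLDN4, CLDN7, CLDN15 or TJP1 that passed no threshold. The CLDN4 ratio at 20 μg/mL EEDS (-0.36) was 0.44 against the other control, that at 60 nM (0.04) was -0.75, and CLDN7 at 20 μg/mL (0.02) was at -0.46 with 75th percentile scaling. The cause was not tested for any of these changes.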
